A study of Homo sapiens with 6 samples.

Results

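Macroautophagy is built by a small set of proteins, and 42 of their genes are described here, namely the core machinery that makes the autophagosome and the receptors that bring cargo to it. They were taken by gene name from a textbook list, and all 42 names were found once each among the 58735 features of the count table. Of these, 41 passed the low-count filter and were tested together with all 16210 genes that passed it, and 1, MAP1LC3A, did not. The 6 libraries came from human cells labelled BE(2)-C, a line derived from a neuroblastoma, grown in DMEM with calf serum. In 3 libraries (NS, genotype label Wildtype) the cells carried a lentiviral non-silencing hairpin RNA, and in the other 3 (shACSS2, genotype label ACSS2 deficiency) a lentiviral hairpin against ACSS2, the nuclear and cytosolic enzyme that makes acetyl-CoA from acetate. Both were stable lines selected with puromycin. The labels describe 1 line per group, the titles write siACSS2, and the treatment text once calls the line shNgBR. The labels name no separate cultures, so p-values measure the spread between these libraries, which may be technical.

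In autophagy a double membrane grows around cytoplasm or a damaged organelle, closes, and fuses with the lysosome, where the contents are broken down. The ULK kinase complex, which mTORC1 restrains and AMPK promotes, starts the process, and the class III PI3-kinase complex marks the growing membrane with PI3P. ATG9 vesicles and the lipid transfer proteins ATG2A and ATG2B supply lipid, WIPI proteins read the PI3P, and a pair of ubiquitin-like conjugation reactions attaches ATG8 proteins (the LC3 and GABARAP families) to the membrane. Cargo receptors bind ATG8 proteins on one side and ubiquitin, mitochondria or other cargo on the other. Acetyl-CoA bears on the pathway as the donor for acetylation of autophagy proteins and of histones, and ACSS2 itself has been linked to transcription of autophagy and lysosome genes through the factor TFEB.

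ACSS2 stood at 20.8, 20.4 and 20.2 CPM in NS and at 4.67, 5.14 and 6.16 CPM in shACSS2, which matches the labels of all 6 libraries. CPM here means counts scaled to a common library total after TMM composition scaling, and a log2 fold change (log2FC) is shACSS2 minus NS, with its standard error after ±. ACSS2 had a log2FC of −1.94 ± 0.145 (adjusted p = 1.95e-06 by edgeR). Library totals ran from 16617885 to 20831599 counts, and the members took 0.219% to 0.236% of them. The libraries labelled shACSS2 replicate 1, 2 and 3 scored −30.0, 23.8 and 14.2 on the second principal component. Within shACSS2, how far a gene lay from the group mean ran against GC content in replicate 1 (Spearman −0.607 across genes, which are not independent) and with it in replicates 2 and 3 (0.48 and 0.388). Of 14 sympathoadrenal and neuroblastoma markers, 2 averaged 5 CPM or more and PHOX2A, TH and TFAP2B had 0 counts in every library, so the labelled cell type is not borne out by its defining markers. MYCN, the oncogene amplified in many neuroblastomas, stood at 1.75 ± 0.313 CPM in NS and 0.787 ± 0.308 CPM in shACSS2 (SD, n = 3 each). Summed over the 14, the level was 39.7 to 45.9 CPM in NS and 42.7 to 49.6 CPM in shACSS2. Most of that sum came from GATA3 and ISL1, and it hides changes in both directions. MYCN, CHGA and CHGB were lower (log2FC −1.14, −1.68 and −1.03, adjusted p = 0.0448, 0.00798 and 0.0366 by edgeR). ISL1 was higher (log2FC 0.51, adjusted p = 0.0138 by edgeR), while GATA3 and HAND2 had adjusted p above 0.05 by edgeR. The summed level of 6 fibroblast and mesenchymal markers was 95.6 to 109 CPM in NS and 77.1 to 95.8 CPM in shACSS2. FN1, the largest part of that sum, fell from 70.6 to 53.5 CPM (log2FC −0.40, adjusted p = 0.0158 by edgeR). COL1A1, PRRX1 and PDGFRB instead had higher means in shACSS2, none with an adjusted p under 0.05 by edgeR. COL1A2 had 0 counts in every library, and DCN was near the floor. The part of these markers in the results was not tested. In bulk RNA a change in every cell and a change in some of the cells cannot be told apart.

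Among 41 tested members there were 6 rises and 4 falls, and 31 missed the threshold (edgeR quasi-likelihood, Benjamini-Hochberg adjusted p of 0.05 over all 16210 genes). ATG5, SQSTM1, ATG3, ATG12, TBK1 and WDR45B rose. GABARAPL1, ATG2A, ATG2B and BNIP3L fell. The members called were 24.4% of those tested, against 17.1% of all genes tested (7.48% higher and 9.64% lower) and 19.6% of the 10615 genes within the members' range of mean level. The higher calls were 1213 of the 2776 made over all genes, a share of 43.7% that became 25.8% with library totals and 60.7% with a correction for GC content and gene length. For 20 of the 41 the CPM ranges of the groups were apart, where 36.3% of all genes tested did not overlap. The median log2 fold change of the members was 0.05, with 24 positive and 17 negative, against a median of 0.0025 over all genes. Fitted folds of the members ran from 0.712 for GABARAPL1 to 1.34 for ATG5.

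The number of members called depended on single libraries of both groups. Without NS replicate 1, only ATG2A and BNIP3L of the 10 were still past the test, and without NS replicate 3 only ATG2A was, while the share of all genes called fell to 6.15% and 6.98%. Without NS replicate 2 there were 7 still called, without shACSS2 replicate 2 there were 6, and without shACSS2 replicate 3 there were 4 (ATG2A, BNIP3L, ATG3 and ATG12). The shares of all genes called in these fits, in that order, were 15.5%, 11.7% and 11.9%. Without shACSS2 replicate 1, the library that stands apart with GC content, all 10 were still called, as were 23.5% of all genes. A correction for GC content and gene length, chosen after the data were seen, kept all 10. It raised the number of higher members to 13 (adding ULK1, UVRAG, ATG4C, GABARAPL2, OPTN, TAX1BP1 and CALCOCO2). Over all genes that correction called 28.1%, against 17.1% in the main test, and moved the median log2 fold change from 0.0025 to 0.044. Scaling by library totals alone left 3 higher members, with 17.5% of all genes called.

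**Figure D1:**
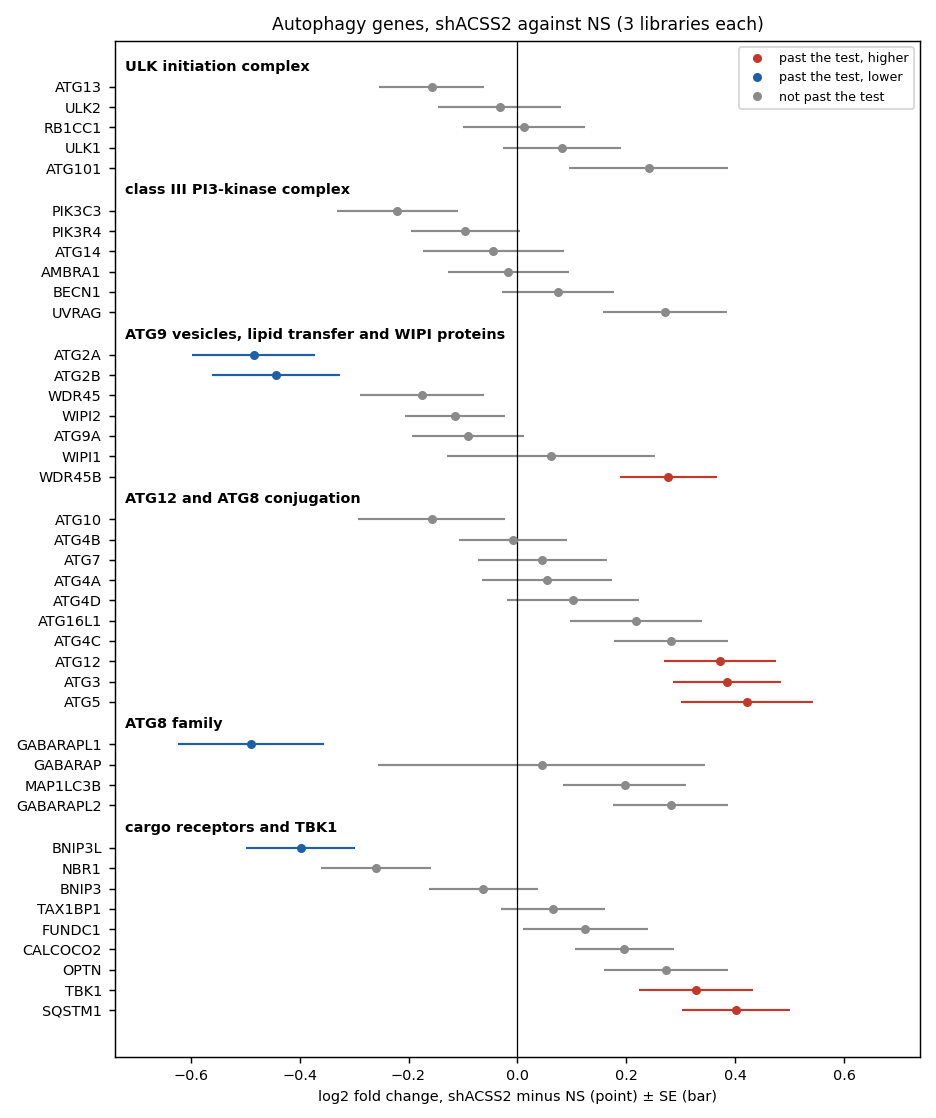
Log2 fold change of the 41 tested members (points, x axis) with its standard error (bars), grouped by role; red and blue points passed the test. The 10 members past it lie between −0.49 and 0.42. The ULK and PI3-kinase complexes, of 5 and 6 genes, hold none of them, where 17.1% of all genes tested were called.

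**Figure D2:**
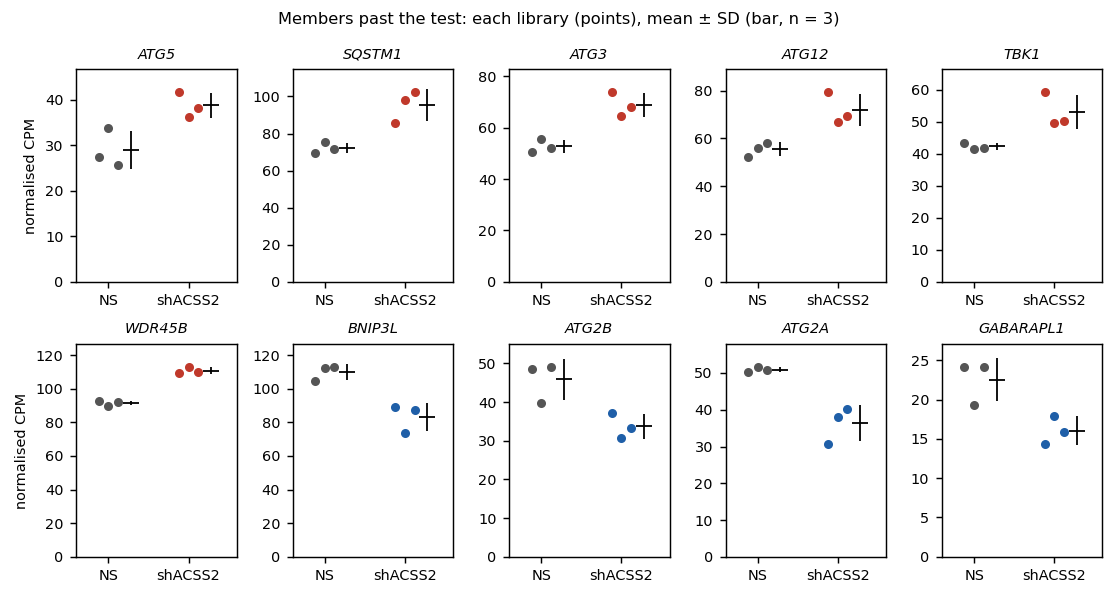
Normalised CPM of the 10 members past the test in each of the 3 NS and 3 shACSS2 libraries (points, in the order of replicates 1 to 3) with mean ± SD (bar, n = 3). The groups overlap for none of the 10, which were picked by the test, and 36.3% of all genes tested do not overlap either. The y axes start at 0.

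Many genes that fell hold ATGCTCA or TGCTCAA in their annotated 3′ UTR, a sequence picked from these same fold changes, so its shares are a description. Only the transcript strand was searched, and the 7-base forms overlap in ATGCTCAA. Among the members, 7 of 41 tested genes (17.1%) held either sequence in their longest annotated 3′ UTR, against 18.0% of all 13263 tested genes with such a UTR. It was present in 1 of the 4 members that fell, 0 of the 6 that rose and 6 of the 31 not past the test. Over all tested genes with such a UTR it was present in 43.9%, 6.75% and 16.0% of those classes. Their median 3′ UTR lengths differed, at 2228.5, 938 and 1378 bases. The shares were not adjusted for length, and its part in them was not tested. The matches of the 7 members are shown so that holders with and without a change can be set side by side. Each window is from GENCODE 29 transcripts on GRCh38, 5′ to 3′ on the transcript strand, with the match in capitals.
GABARAPL1, chr12:10222001-10222028, plus strand: acattttcacATGCTCAAttgatatttt
PIK3C3, first match, chr18:42082592-42082618, plus strand: agccctctgtATGCTCAttcttgtagt
PIK3C3, second match, chr18:42083162-42083188, plus strand: cagtttttatTGCTCAAagcaattctt
WIPI2, chr7:5233297-5233323, plus strand: ggcctcagacATGCTCAggagtgacgg
WDR45, chrX:49071520-49071546, minus strand: acccttctccATGCTCAtccccaaact
ATG10, chr5:82255291-82255317, plus strand: tattcattaaATGCTCAcctttcttgt
GABARAP, chr17:7240144-7240170, minus strand: aatgttaaaaATGCTCAtgtaaaaaaa
ATG4A, chrX:108154138-108154164, plus strand: tctgttctctTGCTCAAataataaagt

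GABARAPL1 is the one member whose match covers both 7-base forms at once, and the one holder past the test. Its log2 fold change was −0.49, and those of PIK3C3, WDR45, ATG10 and WIPI2 were −0.22, −0.18, −0.16 and −0.12, none past the test. GABARAP and ATG4A, which hold 1 match each, had log2 fold changes of 0.04 and 0.05. The members that fell the most after GABARAPL1, namely ATG2A, ATG2B and BNIP3L, hold no match in their longest annotated 3′ UTRs of 427, 6553 and 2717 bases. The median log2 fold change was −0.16 in the 7 holders and 0.08 in the other tested members, against −0.16 and 0.05 over all genes with an annotated 3′ UTR.

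The ULK initiation complex showed 0 of 5 members past the test, where 17.1% of all genes tested were called. With 5 genes, 0 calls lies near that share. ULK1 and ULK2 are the kinases, ATG13 and ATG101 bind each other and hold the complex together, and RB1CC1 (FIP200) is its large scaffold. ULK1, the more abundant kinase, stood at 59.8, 56.5 and 62.9 CPM in NS and at 54.4, 67.6 and 67.7 CPM in shACSS2. Its shACSS2 libraries lay on both sides of the NS range, with replicate 1 below it. Its log2FC was 0.08 ± 0.109 (adjusted p = 0.646 by edgeR), and with the GC and length correction 0.22 (adjusted p = 0.0268 by edgeR), past the test. Scaled by exonic length, ULK1 made up 72.4% of the summed ULK1 and ULK2 TPM in NS and 73.8% in shACSS2. ATG13 was the one subunit whose groups did not overlap, at 66.2 to 69.7 CPM in NS and 56.0 to 63.8 CPM in shACSS2 (log2FC −0.16 ± 0.0972, adjusted p = 0.277 by edgeR). ATG101 had the smallest p in the complex, with a log2FC of 0.24 ± 0.146 (adjusted p = 0.271 by edgeR), but 19.2% of its exonic bases overlap an antisense gene and the counting is not stated to use strand. RB1CC1 stood at 96.8 to 102 CPM in NS and reached from 88.6 to 120 CPM in shACSS2, where the highest value was replicate 1.

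The class III PI3-kinase complex also held 0 of 6 members past the test, likewise near the 17.1% of all genes tested. PIK3C3 (VPS34) is the lipid kinase, PIK3R4 (VPS15) its regulatory partner and BECN1 (Beclin 1) the core subunit. ATG14 directs the complex to autophagosome formation, UVRAG directs an alternative complex to endosomes, and AMBRA1 regulates Beclin 1. BECN1 stood at 37.1, 35.9 and 38.1 CPM in NS and at 39.6, 41.0 and 36.4 CPM in shACSS2, with overlapping groups and a log2FC of 0.07 ± 0.103 (adjusted p = 0.663 by edgeR). ATG14 differed by as little, at −0.04 (SE 0.129). UVRAG stood at 24.6, 23.5 and 28.2 CPM in NS and at 32.6, 30.5 and 29.01 CPM in shACSS2, so that every shACSS2 library lay above every NS library, but the difference did not pass the test (log2FC 0.27 ± 0.114, adjusted p = 0.111 by edgeR) except with the GC and length correction (0.30, adjusted p = 0.0225 by edgeR). PIK3C3 stood at 41.0, 40.9 and 44.4 CPM in NS and at 41.0, 34.4 and 33.2 CPM in shACSS2 (log2FC −0.22 ± 0.111, adjusted p = 0.180 by edgeR). Its shACSS2 replicate 1 lay within the NS range and its replicates 2 and 3 below it. Without shACSS2 replicate 1 it passed the test, at −0.32 (edgeR adjusted p = 0.0183), and with the GC and length correction its log2 fold change was −0.0126. AMBRA1 and PIK3R4 had log2 fold changes of −0.02 and −0.10.

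Both lipid transfer proteins fell. ATG2A and ATG2B are rod-shaped proteins that move phospholipid from the ER into the growing membrane, and each can stand in for the other. ATG2A (chromosome 11, 64894546 to 64917248, minus strand, GRCh38) stood at 50.3, 51.6 and 50.9 CPM in NS and at 30.8, 38.2 and 40.2 CPM in shACSS2. The NS libraries were nearly equal and all shACSS2 libraries lay below them, replicate 1 the furthest. The mean fell from 50.9 ± 0.676 to 36.4 ± 4.97 CPM (SD, n = 3 each), with a log2FC of −0.48 ± 0.113 (fold 0.715; adjusted p = 0.00949 by edgeR). ATG2A was past the test in all 17 alternatives run, at adjusted p from 0.00136 to 0.0469. ATG2B (chromosome 14, 96279202 to 96363870, minus strand) stood at 48.7, 39.8 and 49.1 CPM in NS and at 37.2, 30.8 and 33.2 CPM in shACSS2. Its lowest NS library, replicate 2, lay just above the highest shACSS2 library, replicate 1. The mean fell from 45.9 ± 5.22 to 33.7 ± 3.27 CPM (log2FC −0.44 ± 0.117, adjusted p = 0.0176 by edgeR). The call of ATG2B ended without NS replicate 1 or 3 and without shACSS2 replicate 2 or 3 (edgeR adjusted p = 0.101, 0.0919, 0.0700 and 0.0555), and its log2 fold change was −0.26 with the GC and length correction (edgeR adjusted p = 0.035). By length-scaled level ATG2A made up 67.6% of the pair in NS and 66.7% in shACSS2, with overlapping groups.

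Of the PI3P readers, only WDR45B passed the test. WIPI2 brings the ATG16L1 complex to the membrane, WIPI1 is its near relative, and WDR45 (WIPI4) and WDR45B (WIPI3) work with ATG2 proteins. WDR45B (chromosome 17, 82614562 to 82648553, minus strand) stood at 92.6, 90.0 and 91.9 CPM in NS and at 110, 113 and 110 CPM in shACSS2. Both groups were tight and well apart. The mean rose from 91.5 ± 1.38 to 111 ± 1.82 CPM (SD, n = 3 each), with a log2FC of 0.28 ± 0.0893 (fold 1.21; adjusted p = 0.0439 by edgeR). That p lies close to the threshold, and the call ended in 9 of 17 alternatives (edgeR adjusted p of 0.0727 to 0.159 there), with log2 fold changes of 0.20 to 0.29 over all 17. WDR45 and WIPI2 did not pass the test, with log2 fold changes of −0.18 (SE 0.113; edgeR adjusted p = 0.303) and −0.12 (SE 0.092; edgeR adjusted p = 0.412). WIPI2 stood at 101, 102 and 101 CPM in NS and at 88.6, 92.6 and 98.9 CPM in shACSS2, without overlap, but the GC and length correction turned its direction (0.0109). WDR45 shares 13.9% of its exonic bases with PRAF2 on the same strand, where reads cannot be assigned with certainty. WIPI1 was scarce at 6.15 ± 0.695 CPM in NS (SD, n = 3). ATG9A, the only transmembrane protein of the core machinery and a lipid scramblase, had a log2FC of −0.09 ± 0.103, and it shares 38.8% of its exonic bases with a gene on the same strand.

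By length-scaled level WDR45B made up 56.7%, 57.1% and 58.04% of the summed TPM of the WIPI family in NS and 65.6%, 63.6% and 62.3% in shACSS2. WIPI2 took 24.4%, 25.5% and 25.1% in NS and 20.9%, 20.6% and 22.1% in shACSS2. WDR45 took 12.8% to 14.5% in NS and 10.5% to 11.9% in shACSS2. The groups did not overlap for these genes, while those of WIPI1 did. Such shares do not depend on how libraries are scaled against each other, but they were not corrected for GC content. As parts of the same total they are also not independent.

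In the conjugation machinery 3 of 10 members rose and 0 fell, where 7.48% of all genes tested rose and 9.64% fell. The difference from those shares was not tested. ATG12 is a ubiquitin-like protein that ATG7 (the E1 enzyme) and ATG10 (its E2 enzyme) attach to ATG5. The ATG12–ATG5 conjugate, bound to ATG16L1, then acts as the E3 ligase that with ATG7 and ATG3 (the E2 enzyme for ATG8 proteins) joins ATG8 proteins to lipid. ATG5 (chromosome 6, 106045423 to 106325791, minus strand) stood at 27.4, 33.8 and 25.7 CPM in NS and at 41.7, 36.3 and 38.3 CPM in shACSS2. NS replicate 2 was the highest of its group, yet below every shACSS2 library. The mean rose from 28.96 ± 4.25 to 38.8 ± 2.73 CPM (SD, n = 3 each; log2FC 0.42 ± 0.121, fold 1.34, adjusted p = 0.0263 by edgeR). ATG12 (chromosome 5, 115828200 to 115841858, minus strand), the partner it is joined to, stood at 52.4, 55.8 and 58.2 CPM in NS and at 79.4, 66.7 and 69.4 CPM in shACSS2. Its mean rose from 55.5 ± 2.94 to 71.8 ± 6.68 CPM (log2FC 0.37 ± 0.103, adjusted p = 0.0216 by edgeR). ATG3 (chromosome 3, 112532509 to 112562046, minus strand) stood at 50.4, 55.6 and 52.1 CPM in NS and at 73.8, 64.5 and 68.0 CPM in shACSS2. The groups were far apart, and the mean rose from 52.7 ± 2.63 to 68.8 ± 4.74 CPM (log2FC 0.38 ± 0.0995, adjusted p = 0.0159 by edgeR).

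In all 3 of these genes, as in TBK1, shACSS2 replicate 1 was the highest of the 6 libraries, and the longest annotated transcripts of the 4 have a GC content of 37.5% to 39.9%. In ATG2A and SQSTM1, at 63.99% and 58.04% GC, shACSS2 replicate 1 was instead the lowest of its group. The 6 members that rose had a median GC content of 39.6%, against 46.3% for the 4 that fell and 46.4% for the rest, and its part in the result was not tested beyond the correction. With the GC and length correction the log2 fold changes of ATG5, ATG12 and ATG3 were 0.45, 0.48 and 0.42, all past the test. The calls of the 3 genes ended without NS replicate 1 (edgeR adjusted p = 0.132, 0.133 and 0.107) and without NS replicate 3 (0.142, 0.0548 and 0.0718). The call of ATG12 also ended without NS replicate 2 (0.0522) and with library totals (0.0550), and that of ATG5 without shACSS2 replicate 3 (0.0567).

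The enzymes around them did not pass the test. ATG7, which serves both reactions, stood at 35.5 to 46.2 CPM in NS and 38.3 to 45.3 CPM in shACSS2, a complete overlap (log2FC 0.05 ± 0.118, adjusted p = 0.827 by edgeR). It shares 18.1% of its exonic bases with VGLL4 on the opposite strand. ATG10 was scarce and had a log2FC of −0.16 ± 0.135 (adjusted p = 0.451 by edgeR). ATG16L1 had one of 0.22 ± 0.122 (adjusted p = 0.230 by edgeR). Among the ATG4 proteases, which trim ATG8 proteins before conjugation and free them afterwards, ATG4C came closest to the threshold. It stood at 50.3, 59.1 and 56.4 CPM in NS and at 73.8, 63.2 and 64.7 CPM in shACSS2, without overlap (log2FC 0.28 ± 0.105, adjusted p = 0.0749 by edgeR). With the GC and length correction ATG4C passed the test, at 0.28 (adjusted p = 0.0127 by edgeR). ATG4D, ATG4A and ATG4B had log2 fold changes of 0.10, 0.05 and −0.0081, with overlapping groups. By length-scaled level ATG4C made up 37.9% of the summed ATG4 TPM in NS and 41.7% in shACSS2.

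In the ATG8 family 1 of 4 tested members, GABARAPL1, fell and 0 rose, beside 9.64% and 7.48% of all genes tested. GABARAPL2 (GATE-16) and MAP1LC3B (LC3B) were the abundant members, at 129 ± 10.8 and 59.0 ± 5.55 TPM in NS (SD, n = 3 each). TPM is the length-scaled level, here over the union of annotated exons. GABARAPL1 stood at 20.8 TPM and GABARAP at 12.8 TPM. MAP1LC3A (LC3A) had 0, 2 and 4 counts in the NS libraries and 0, 0 and 2 in shACSS2, at or near the 3 counts that a count of 0 allows, which are 0.144 to 0.181 CPM in a library. Its level in either group was therefore not measurable at this depth.

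GABARAPL1 (chromosome 12, 10212458 to 10223130, plus strand) stood at 24.1, 19.3 and 24.1 CPM in NS and at 14.3, 17.9 and 15.9 CPM in shACSS2. All shACSS2 libraries lay below all NS libraries, with replicate 2 of each group the nearest pair. The mean fell from 22.5 ± 2.76 to 16.0 ± 1.80 CPM (SD, n = 3 each), with a log2FC of −0.49 ± 0.134 (fold 0.712; adjusted p = 0.0210 by edgeR). Leaving out NS replicate 1 or 3, or shACSS2 replicate 3, ended its call (edgeR adjusted p = 0.114, 0.102 and 0.0571). GABARAPL2 stood at 99.2, 117 and 96.1 CPM in NS and at 140, 118 and 122 CPM in shACSS2. Its groups did not overlap either, but replicates 2 of the groups were nearly equal, and the log2 fold change of 0.28 did not pass the test (SE 0.106; edgeR adjusted p = 0.0776). GABARAPL2 passed it with the GC and length correction (0.23, edgeR adjusted p = 0.029) and without NS replicate 2 (0.37, edgeR adjusted p = 0.0406). MAP1LC3B had a log2FC of 0.20 ± 0.114 (adjusted p = 0.247 by edgeR) with overlapping groups. GABARAP had the largest error of all members (log2FC 0.04 ± 0.301), with 4.10 to 11.7 CPM in shACSS2. It shares 30.5% of its exonic bases with the same-strand gene AC120057.2, which had 0 counts in every library, and reads from shared exons cannot be assigned with certainty.

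Within the listed members of the family, GABARAPL1 made up 10.7%, 7.29% and 10.4% of the summed TPM in NS and 4.77%, 7.16% and 5.84% in shACSS2. MAP1LC3C, which did not pass the low-count filter, and MAP1LC3B2 lie outside the list and this sum. Their mean levels were 0.568 and 2.74 TPM in NS and 1.91 and 3.23 TPM in shACSS2. GABARAPL2 took 59.1%, 59.5% and 55.9% in NS and 62.6%, 63.6% and 60.4% in shACSS2. MAP1LC3B kept a like share, with means of 26.5% and 26.7%. The shares of GABARAPL1 and GABARAPL2 did not overlap between the groups, that of GABARAPL1 by a narrow margin at replicate 2.

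**Figure D3:**
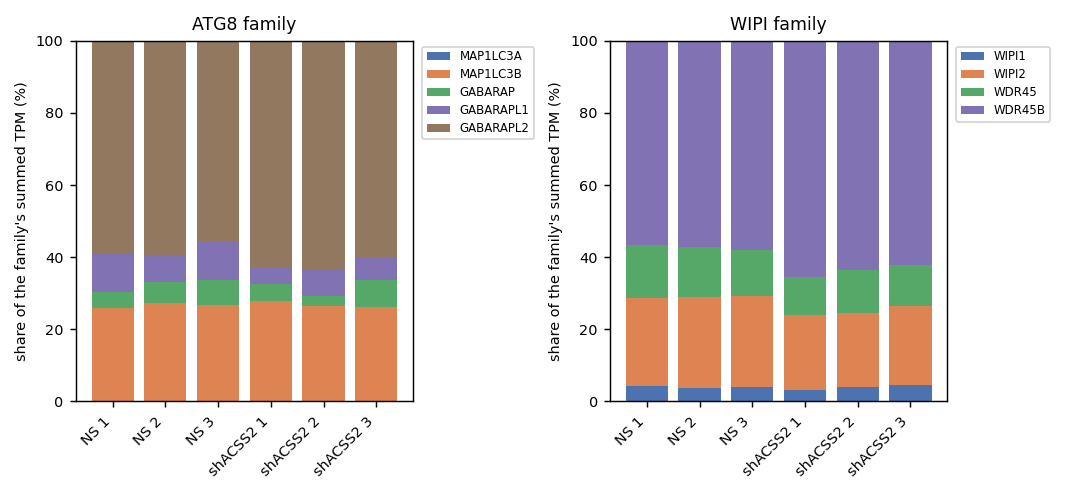
Share of each gene in the summed TPM of the listed ATG8 members (left) and the WIPI family (right), in percent (y axis, stacked from 0 to 100), for each of the 6 libraries. GABARAPL1 takes 7.29% to 10.7% in NS and 4.77% to 7.16% in shACSS2, and WDR45B 56.7% to 58.04% and 62.3% to 65.6%.

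Among the cargo receptors, SQSTM1 rose and BNIP3L fell. SQSTM1 (p62) gathers ubiquitinated proteins into bodies and hands them to LC3, and is itself degraded with its cargo. SQSTM1 (chromosome 5, 179806398 to 179838078, plus strand) stood at 69.5, 75.3 and 71.7 CPM in NS and at 85.7, 97.8 and 102 CPM in shACSS2. Every shACSS2 library lay above the highest NS library, replicate 1 the nearest. The mean rose from 72.2 ± 2.94 to 95.3 ± 8.63 CPM (SD, n = 3 each), with a log2FC of 0.40 ± 0.0993 (fold 1.32; adjusted p = 0.0129 by edgeR). Leaving out NS replicate 1 or 3, or shACSS2 replicate 3, ended the call (edgeR adjusted p = 0.0920, 0.0609 and 0.0642). MRNIP, on the opposite strand, overlaps 20.7% of the exonic bases of SQSTM1. It did not pass the test (log2FC −0.15 ± 0.135, adjusted p = 0.464 by edgeR).

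The other ubiquitin-binding receptors did not pass the test. NBR1, which works with SQSTM1 on the same bodies, stood at 96.3, 94.4 and 114 CPM in NS and 82.6, 83.7 and 88.0 CPM in shACSS2, without overlap (log2FC −0.26 ± 0.1004, adjusted p = 0.0842 by edgeR). Of the alternatives, it passed the test with library totals (−0.33, edgeR adjusted p = 0.0352). OPTN (optineurin) and CALCOCO2 (NDP52), are receptors for damaged mitochondria and invading bacteria. OPTN stood at 24.1, 26.0 and 30.2 CPM in NS and at 31.8, 33.3 and 32.0 CPM in shACSS2 (log2FC 0.27 ± 0.114, adjusted p = 0.109 by edgeR). CALCOCO2 stood at 73.8, 78.8 and 76.6 CPM in NS and at 88.9, 86.8 and 87.0 CPM in shACSS2 (log2FC 0.20 ± 0.0912, adjusted p = 0.146 by edgeR). Neither pair of groups overlapped and neither passed the test, while both did with the GC and length correction (edgeR adjusted p = 0.0454 and 0.00792). TAX1BP1, a receptor of the same class, had a log2FC of 0.06 ± 0.0954 with overlapping groups, and one of 0.19 with the GC and length correction (adjusted p = 0.0488 by edgeR).

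TBK1, the kinase that phosphorylates OPTN, SQSTM1 and other receptors and so strengthens their grip on cargo, also rose. TBK1 (chromosome 12, 64451880 to 64502108, plus strand) stood at 43.4, 41.5 and 41.95 CPM in NS and at 59.3, 49.7 and 50.3 CPM in shACSS2. The NS values were nearly equal, and replicate 1 set the upper end of shACSS2. The mean rose from 42.3 ± 0.971 to 53.1 ± 5.38 CPM (SD, n = 3 each; log2FC 0.33 ± 0.105, fold 1.25, adjusted p = 0.0428 by edgeR). The call ended in 8 of 17 alternatives (edgeR adjusted p of 0.0511 to 0.137 there), among them library totals and the omission of any library but shACSS2 replicate 1. The antisense gene AC135279.3 overlaps 14.7% of the exonic bases of TBK1, and the counting is not stated to use strand.

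The mitophagy receptors sit in the outer mitochondrial membrane. BNIP3L (NIX), known for clearing mitochondria from maturing red cells, is on chromosome 8, 26382898 to 26505636, plus strand. BNIP3L stood at 105, 112 and 113 CPM in NS and at 89.3, 73.8 and 87.1 CPM in shACSS2. Every shACSS2 library lay below the lowest NS library. The mean fell from 110 ± 4.61 to 83.4 ± 8.37 CPM (SD, n = 3 each), with a log2FC of −0.40 ± 0.1004 (fold 0.759; adjusted p = 0.0139 by edgeR). The call ended without NS replicate 3 or shACSS2 replicate 2 (edgeR adjusted p = 0.0641 and 0.0752). Its paralog BNIP3, like BNIP3L a target of hypoxia-inducible factors, did not pass the test. BNIP3 stood at 187, 191 and 224 CPM in NS and at 178, 204 and 194 CPM in shACSS2, with overlapping groups (log2FC −0.06 ± 0.1002, adjusted p = 0.712 by edgeR). The annotation lists 39 pseudogenes named after BNIP3, which can share its reads, and none named after BNIP3L. BNIP3L made up 40.5% of the summed TPM of the pair in NS and 35.0% in shACSS2, with groups that met at 38.4% (NS replicate 3) and 38.3% (shACSS2 replicate 1). FUNDC1, another mitophagy receptor, had a log2FC of 0.12 ± 0.115.

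**Figure D4:**
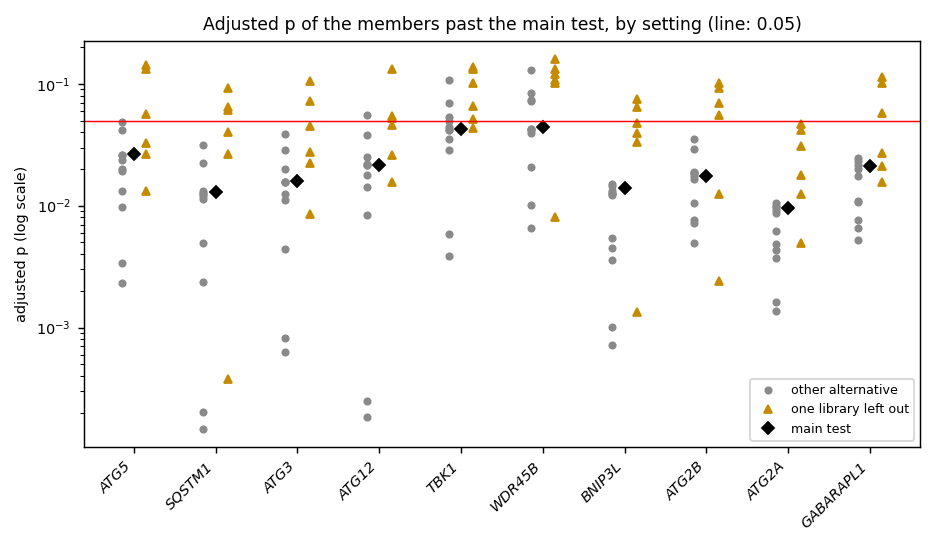
Adjusted p (y axis, log scale) of the 10 members past the main test (black diamonds), in 11 other settings (grey; 10 for GABARAPL1) and with each of the 6 libraries left out in turn (triangles); the line marks 0.05. ATG2A stays under the line throughout, and most points above it are those with 1 library left out.

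Other genes of the pathway were counted in 5 lists of 106 genes, grouped by textbook role. All 106 were tested, with 10 rises, 11 falls and 85 that missed the threshold (19.8% called, against 17.1% of all genes). The largest fold among named genes of these lists was SESN3, in the list of genes that report nutrients and stress to mTORC1, the kinase complex that holds ULK1 in check, where 3 of 38 rose and 5 fell. SESN3, a sestrin that restrains mTORC1, fell from 75.0 ± 5.88 to 38.2 ± 5.15 CPM (SD, n = 3 each; log2FC −0.97 ± 0.115, adjusted p = 7.36e-05 by edgeR). RRAGC and RRAGD encode Rag GTPases that bring mTORC1 to the lysosome. RRAGC fell from 13.8 ± 2.63 to 7.84 ± 0.905 CPM (log2FC −0.82 ± 0.165, adjusted p = 0.0039 by edgeR) and RRAGD rose from 44.4 ± 0.988 to 66.0 ± 4.22 CPM (log2FC 0.57 ± 0.0985, adjusted p = 0.00146 by edgeR). SESN3, RRAGC and RRAGD all hold the shared 3′ UTR sequence. Of the other called genes named from these lists, ATG16L2 and ATP6V1A hold it too, and the rest do not. Over all tested genes with an annotated 3′ UTR it was present in 43.9% of those that fell and 6.75% of those that rose. The median 3′ UTR lengths of those classes were 2228.5 and 938 bases. DDIT4 (REDD1), another restraint on mTORC1, fell by 0.59 on the log2 scale (SE 0.126; edgeR adjusted p = 0.00592). These 4 calls held in all 17 alternatives for DDIT4, and in all 16 that gave a value for the other 3. SESN2, also a sestrin, went the other way from SESN3 and DDIT4 (log2FC 0.32 ± 0.103, adjusted p = 0.0414 by edgeR). RHEB of this list also rose (log2FC 0.48 ± 0.101, adjusted p = 0.00502 by edgeR). The call of SESN2 ended in several alternatives, among them library totals (edgeR adjusted p = 0.0984), while that of RHEB held in each.

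In the list of initiation and membrane supply, 3 of 16 rose and 2 fell (31.2% called, against 17.1% of all genes). VMP1, an ER scramblase that works with ATG9A and ATG2 proteins, rose from 80.0 ± 10.1 to 112 ± 9.08 CPM (SD, n = 3 each; log2FC 0.48 ± 0.109, adjusted p = 0.00793 by edgeR). RUBCNL (Pacer) had a log2FC of 0.55 ± 0.157 (adjusted p = 0.0255 by edgeR). TP53INP2 (DOR), which binds ATG8 proteins, had one of −0.60 ± 0.138 (adjusted p = 0.00877 by edgeR), and ATG16L2, the paralog of ATG16L1, one of −0.59 ± 0.181 (adjusted p = 0.0355 by edgeR). For fusion with the lysosome, 1 of 18 rose and 2 fell (16.7% called). VAMP8, a SNARE of the fusion step, had a log2FC of 0.43 ± 0.136 (adjusted p = 0.0384 by edgeR), and VPS18 and VPS39, subunits of the HOPS tether, had −0.38 and −0.34 (SE 0.127 and 0.106; edgeR adjusted p = 0.0485 and 0.0403). Of 18 further receptors and adaptors 1 fell (5.56% called). This was WDFY3 (ALFY), a large adaptor for protein aggregates, at −0.45 (SE 0.108, edgeR adjusted p = 0.0114). Without NS replicate 1 the calls of all 8 genes named here ended, at edgeR adjusted p from 0.0554 to 0.195. Calls also ended for VMP1 (0.0569), ATG16L2 (0.182), VAMP8 (0.194, with a log2 fold change of 0.27), VPS18 (0.116) and VPS39 (0.149) without NS replicate 3, by edgeR adjusted p. That of WDFY3 ended with the GC and length correction, at −0.24 (edgeR adjusted p = 0.058). That of VAMP8 ended with library totals (edgeR adjusted p = 0.0617) and in the fit without genes holding the 3′ UTR sequence (0.0573), and that of VPS18 with upper-quartile scaling (0.0553). Without NS replicate 2 the calls of RUBCNL, VPS18 and VPS39 ended, without shACSS2 replicate 1 those of ATG16L2, VAMP8 and VPS18, without shACSS2 replicate 2 those of RUBCNL, VAMP8 and VPS39, and without shACSS2 replicate 3 those of VPS18 and VPS39 (edgeR adjusted p from 0.0512 to 0.126).

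Of 16 subunits of the vacuolar ATPase, which acidifies the lysosome, 3 rose and 1 fell (25% called, against 17.1% of all genes). ATP6V0B had a log2FC of 0.62 ± 0.155 (adjusted p = 0.0132 by edgeR), ATP6V0E1 one of 0.50 ± 0.126 (adjusted p = 0.014 by edgeR) and ATP6V1B2 one of 0.37 ± 0.102 (adjusted p = 0.0216 by edgeR). ATP6V1A, the catalytic subunit, with a match to the same sequence in its 3′ UTR, fell from 144 ± 3.62 to 103 ± 13.5 CPM (SD, n = 3 each; log2FC −0.48 ± 0.104, adjusted p = 0.00608 by edgeR). The 3 rises were no longer called without NS replicate 1 or NS replicate 3, at edgeR adjusted p from 0.0535 to 0.119. That of ATP6V0B also ended without shACSS2 replicate 1 (0.265) and with the GC and length correction (0.0943), and that of ATP6V1B2 without shACSS2 replicate 3 (0.0557). ATP6V1A was called in all 16 alternatives that gave it a value. TFEB, the transcription factor named above, stood at 7.96 CPM in NS and 10.1 CPM in shACSS2 (log2FC 0.35 ± 0.155, adjusted p = 0.132 by edgeR), and is named after its values were seen, for its known link to ACSS2.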

How the data were processed

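mRNA-seq libraries of 3 NS and 3 shACSS2 samples were read from the raw gene counts deposited by the authors. Per the submitters' processing notes, reads passed fastp, HISAT2 2.0.5 and featureCounts 1.5.0-p3 with hg19, and DESeq2 was named with version 4.3.1. How strand and multi-mapping reads were handled is not stated in these sources. The 58735 identifiers were matched to GENCODE 29 on GRCh38, which gave coordinates, lengths, GC content and 3′ UTRs.

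Groups were compared with edgeR 4.0.16 (R 4.3.3): TMM, filterByExpr by group, robust quasi-likelihood F test, Benjamini-Hochberg at 0.05 over 16210 genes. Standard errors were derived from the F statistic, as |log2FC| divided by its square root. TPM was computed from the counts and exonic lengths. The 17 alternatives include DESeq2 1.42.0, limma voom (limma 3.58.1), other scalings and filters, a replicate block and each library left out. Totals of 16617885 to 20831599 counts put 3 counts at 0.144 to 0.181 CPM. Tested on simulated data of 16210 genes with 200 changed, 50 of 100 genes with an absolute log2 fold change of 0.5 were called, and 98 of 100 at 1.

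Members and lists were chosen with earlier results of these data known. The rule named every member past the test and up to 4 genes per further list by size. Other members are named to account for the list, and SESN2 and RHEB to show calls in the other direction.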

Additional observations from a re-analysis of the deposited data

How the results depend on the processing

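Against 6 members higher, 4 lower and 2776 genes called, an adjusted p of 0.01 gave 0, 1 and 1010, and library totals gave 3 higher members. The GC and length correction gave 13 higher members and 4562 genes, and with a replicate block 12 and 4679. Without genes holding the 3′ UTR sequence 1844 genes were called. With 1 library left out the ranges were 0 to 6, 1 to 5 and 1018 to 3931. In the 5 further lists (10 higher, 11 lower) an adjusted p of 0.01 gave 4 and 5, the correction 27 higher, the correction with a block 30 higher, the fit without the sequence 6 lower, and leaving out a library 2 to 16 and 4 to 17. The cause was not tested. All 10 called members kept their direction in each alternative that gave them a value. On simulated data of this size 50% of genes with an absolute log2 fold change of 0.5 were called, and smaller changes were not simulated. That simulation changed 200 genes, far fewer than the 2776 called here, and held no deviation with GC content within a group. Its share is therefore not the call rate of these data.

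The replicate numbers did not pair the libraries: deviations of same-numbered libraries correlated at −0.0428, −0.0664 and 0.1118, and only replicate 3 matched its own number best. The replicate block gave 4 members higher, 4 lower and 2923 genes, without the calls of WDR45B and TBK1 (edgeR adjusted p = 0.0733 and 0.0534).

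Log2 fold changes that turned sign were all of members not past the test. With library totals they were −0.0613 for RB1CC1, −0.0108 for WIPI1, −0.0178 for ATG4A, −0.025 for ATG7, −0.0259 for GABARAP and −0.0089 for TAX1BP1. With the GC and length correction, without and with the block, they were 0.0751 and 0.0743 for ULK2, 0.0839 and 0.0826 for AMBRA1, 0.0109 and 0.0109 for WIPI2, and 0.1035 and 0.0989 for ATG4B. GABARAP had −0.0497 with limma voom, −0.0105 with the block and −0.0498 with block and correction, and RB1CC1 had −0.0006 with limma voom and −0.013 without genes holding the sequence. Leaving out 1 library gave −0.0833 to 0.0394 for ULK2, −0.1293 to 0.098 for RB1CC1, −0.1128 to 0.0568 for ATG14, −0.0845 to 0.0852 for AMBRA1, −0.0751 to 0.2206 for WIPI1, −0.0318 to 0.1033 for ATG4A, −0.0616 to 0.0394 for ATG4B, −0.0386 to 0.1555 for ATG7, −0.3494 to 0.3577 for GABARAP and −0.1148 to 0.0219 for BNIP3.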
